A study of Homo sapiens with 6 samples.

Results

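The comparison set 2 arrays of hypoxic H460 cells against each other, of the 6 arrays in the experiment. One came from cells given the solvent dimethyl sulfoxide (DMSO), and the other from cells given BAY 87-2243, a compound developed as an inhibitor of hypoxia-induced gene activation and studied as a blocker of respiratory complex I. The second array is titled 10 nM, and its treatment field gives the same dose, but its source name gives 1 nM. A further hypoxic array carries these doses the other way round (title 1 nM, source name 10 nM). The dose is therefore not settled by the labels, and these are called the array titled 10 nM and the array titled 1 nM below. The comparison covered 18417 genes.

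H460 is an established human line of large cell lung carcinoma. The cells were kept for 16 h in medium with little serum, under normoxia or hypoxia (1% pO2), with the compound or with DMSO alone. The other 4 conditions were normoxia with DMSO, normoxia with 100 nmol/L, hypoxia with 100 nmol/L, and hypoxia on the array titled 1 nM. Each condition has 1 array, so no difference has a replicate check, no p-value was computed, and a gene was counted when it reached 2-fold.

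When oxygen is scarce, the α subunits of the hypoxia-inducible factors (HIF) escape hydroxylation by prolyl hydroxylases and the degradation that follows through the von Hippel-Lindau protein. They pair with ARNT (HIF-1β), bind short response elements near their target genes and raise the transcription of glucose transporters, glycolytic enzymes, angiogenic factors and mitophagy receptors. Inhibitors of mitochondrial respiration lower the oxygen use of the cell and are known to limit the accumulation of HIF-1α in hypoxia.

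The promoters of 3 HIF targets are shown, because these genes were among those with the largest hypoxic increase and had 1 promoter entry each in RefSeq (GRCh38.p14). Each run gives the 250 bases before the transcription start, on the plus strand. Capitals mark ACGTG or GCGTG, the core letters of HIF response elements, or their reverse complements CACGT and CACGC.
ANKRD37: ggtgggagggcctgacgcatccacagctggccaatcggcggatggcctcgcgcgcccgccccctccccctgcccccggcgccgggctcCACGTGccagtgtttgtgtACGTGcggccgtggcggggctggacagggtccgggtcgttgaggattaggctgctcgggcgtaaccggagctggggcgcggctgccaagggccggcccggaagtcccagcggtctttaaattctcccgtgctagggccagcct
ADM: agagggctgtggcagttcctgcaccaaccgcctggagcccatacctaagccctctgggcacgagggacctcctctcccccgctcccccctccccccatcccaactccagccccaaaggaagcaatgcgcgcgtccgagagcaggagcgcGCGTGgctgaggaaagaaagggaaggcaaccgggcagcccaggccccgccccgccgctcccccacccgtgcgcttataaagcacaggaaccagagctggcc
ANGPTL4: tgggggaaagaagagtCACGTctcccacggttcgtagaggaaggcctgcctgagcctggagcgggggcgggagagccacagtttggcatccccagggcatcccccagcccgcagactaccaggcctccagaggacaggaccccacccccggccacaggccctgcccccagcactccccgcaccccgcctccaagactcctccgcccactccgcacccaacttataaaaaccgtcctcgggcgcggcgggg
These windows are chr4:185396591-185396840 for ANKRD37, chr11:10304823-10305072 for ADM and chr19:8363905-8364154 for ANGPTL4. They held 3 matches in ANKRD37, a pair of which overlap in the palindrome CACGTG, 1 match in ADM and 1 match in ANGPTL4. Of all 35116 promoter windows of this length, 43.2% held at least 1 of these motifs on either strand, so a match alone is a description and not a binding site.

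These targets were about as bright on the array titled 10 nM as with DMSO in hypoxia. ADM (probe set 7938390), which encodes the vasodilator peptide adrenomedullin, had an intensity of 5686 with DMSO in hypoxia and 5816 on the array titled 10 nM. It measured 3363 on the array titled 1 nM, 539 at 100 nmol/L in hypoxia, 479 in normoxia with DMSO and 351 in normoxia with 100 nmol/L. The log2 difference between the array titled 10 nM and hypoxic DMSO was 0.03 for ADM. ANKRD37 (probe set 8098604), an ankyrin repeat protein, was at 2995 with DMSO in hypoxia, 2673 on the array titled 10 nM and 1499 on the array titled 1 nM. Its remaining values were 255 at 100 nmol/L in hypoxia, 216 in normoxia with DMSO and 137 in normoxia with 100 nmol/L, and its log2 difference was -0.16. ANGPTL4 (probe set 8025402), an inhibitor of lipoprotein lipase, measured 6763 with DMSO in hypoxia, 6615 on the array titled 10 nM, 4548 on the array titled 1 nM and 2088 at 100 nmol/L, against 911 and 511 on the normoxic arrays with DMSO and 100 nmol/L. In all 3 genes the array titled 10 nM stood beside the hypoxic DMSO array, while the array titled 1 nM lay between them and the array with 100 nmol/L.

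Across the HIF target list none of the measured genes reached 2-fold in either direction. The list holds 70 genes in 5 groups, of which 66 had a probe set with a single symbol, and 60 of these were brighter genes, with a mean log2 value at or above the median probe set. Over all genes, 38 (0.206%) were lower by 2-fold or more and 11 (0.0597%) were higher on the array titled 10 nM than on the hypoxic DMSO array. At so low a background a count of 0 among 66 genes is not particular to the list. The median log2 difference of the targets was 0.03, beside 0.0038 over all genes and 0.06 over the 11307 brighter genes. Its sign depended on the scaling, being -0.039 after quantile normalization and -0.041 after a brightness trend was removed. The targets spanned -0.44 to 0.38, 51 of 66 lay within 1.1-fold and 64 within 1.3-fold.

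The targets stood as far above normoxia on the array titled 10 nM as on the hypoxic DMSO array. Against normoxia with DMSO, 307 of all genes (1.67%) were at least 2-fold higher with DMSO in hypoxia and 266 (1.44%) on the array titled 10 nM. Of the 66 targets, 35 were at least 2-fold higher with DMSO in hypoxia, and 33 of these were so on the array titled 10 nM, where 34 in all passed. Both comparisons share the normoxic array. The median log2 difference from normoxia was 1.15 on either array.

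The array titled 1 nM differed from the array titled 10 nM in these targets. On the array titled 1 nM the median log2 difference of the targets from hypoxic DMSO was -0.58, and 12 of 66 were at least 2-fold lower, beside 66 of all genes (0.358%). At 100 nmol/L it was -0.90 with 31 targets lower, beside 186 of all genes (1.01%). These comparisons share the hypoxic DMSO array. Compared directly, the array titled 10 nM was brighter than the array titled 1 nM for 63 of 66 targets and brighter than the array with 100 nmol/L for 65. By source name (1, 10 and 100 nM) the medians run 0.03, -0.58 and -0.90. By title (1, 10 and 100 nM) they run -0.58, 0.03 and -0.90. Which label is right was not tested.

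Genes of glucose uptake, glycolysis, lactate production and glycogen had a median log2 difference of 0.04 over 22 measured genes, with 18 above 0, but -0.01 after quantile normalization. ENO2, an enolase isoform, was at 4548 with DMSO in hypoxia and 4427 on the array titled 10 nM, beside 2038 on the array titled 1 nM and 1256 at 100 nmol/L, and 684 and 424 in normoxia with DMSO and with 100 nmol/L. HK2, a hexokinase that traps glucose in the cell, measured 4402 with DMSO in hypoxia, 4276 on the array titled 10 nM, 3139 on the array titled 1 nM and 2186 at 100 nmol/L. Both enzymes had a log2 difference of -0.04. The largest differences of the group were 0.13 for HK1 and 0.11 for the phosphofructokinase PFKP. On the array titled 1 nM the group's median was -0.21, and at 100 nmol/L it was -0.29.

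Secreted and surface proteins had a median log2 difference of -0.02 over 14 measured genes, with 6 above 0, and this median was 0.07 after each array was centred on its median. VEGFA, the main angiogenic growth factor, measured 1999 with DMSO in hypoxia, 1858 on the array titled 10 nM, 1099 on the array titled 1 nM and 664 at 100 nmol/L, with 1342 and 505 in normoxia with DMSO and with 100 nmol/L. PDGFA, a platelet-derived growth factor chain, was at 4201, 4093, 1585 and 750 on the 4 hypoxic arrays in the same order, and at 542 and 597 in normoxia. VEGFA had a log2 difference of -0.11 and PDGFA of -0.04, so that both stood near their hypoxic DMSO level on the array titled 10 nM. The secreted glycoproteins STC1 and STC2 were somewhat brighter on the array titled 10 nM, with log2 differences of 0.16 and 0.20. STC2 measured 1204 with DMSO in hypoxia, 1384 on the array titled 10 nM, 676 on the array titled 1 nM and 365 at 100 nmol/L. The lowest log2 differences of all targets were those of EPO (erythropoietin, -0.44) and PDGFB (-0.38), which were also dim, at 154 and 110 with DMSO in hypoxia and 113 and 84.7 on the array titled 10 nM. CA9, the carbonic anhydrase used as a hypoxia marker, is not analysed here, since no probe set carried its symbol alone.

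Genes of mitophagy, stress and lipid droplets had a median log2 difference of 0.03 over 11 genes, and -0.04 after quantile normalization. HILPDA, a lipid droplet protein, was at 6976 with DMSO in hypoxia and 7451 on the array titled 10 nM, at 3665 on the array titled 1 nM and 474 at 100 nmol/L, and at 1127 and 264 in normoxia with DMSO and with 100 nmol/L. FAM162A, a mitochondrial protein induced by HIF-1, had the largest difference of the group at 0.35. It measured 1332 with DMSO in hypoxia, 1700 on the array titled 10 nM, 735 on the array titled 1 nM, 571 at 100 nmol/L, and 537 and 428 in normoxia with DMSO and with 100 nmol/L. The array titled 10 nM was the highest of the 6 for both genes. BNIP3, a mitophagy receptor, was at 11087 with DMSO in hypoxia and 11379 on the array titled 10 nM, and was named after its values were seen. The group's median was -0.86 on the array titled 1 nM and -1.51 at 100 nmol/L.

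Collagen modifying enzymes had a median log2 difference of -0.02 over 6 genes, with 3 above 0, which turned to 0.08 after median centring. P4HA2, a collagen prolyl hydroxylase subunit, measured 3625 with DMSO in hypoxia and 3285 on the array titled 10 nM, then 1568 on the array titled 1 nM and 1243 at 100 nmol/L, with 981 and 824 in normoxia with DMSO and with 100 nmol/L. PLOD2, a lysyl hydroxylase, went the other way between the compared arrays, from 3940 with DMSO to 4416, with 2417 on the array titled 1 nM, 2074 at 100 nmol/L and 1393 and 1385 in normoxia. The log2 differences were -0.14 for P4HA2 and 0.16 for PLOD2.

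Feedback and chromatin regulators had a median log2 difference of -0.03 over 13 genes, which was 0.07 after median centring. BHLHE41, a transcriptional repressor of the circadian clock, measured 2195 with DMSO in hypoxia, 2146 on the array titled 10 nM, 811 on the array titled 1 nM and 274 at 100 nmol/L, against 330 and 284 in normoxia with DMSO and with 100 nmol/L. The prolyl hydroxylases EGLN1 and EGLN3, which mark HIF-α for degradation, had log2 differences of 0.03 and -0.10. Among the histone demethylases, KDM4C had the largest increase of all targets at 0.38, and KDM6B stood at -0.28. KDM4C was at 525 with DMSO in hypoxia and 685 on the array titled 10 nM, and at 298 to 343 on the other 4 arrays. It was therefore brightest on the compared arrays and highest on the array titled 10 nM.

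The HIF subunits and their regulators were measured for 6 of 8 listed genes and none reached 2-fold. HIF1A, the α subunit of HIF-1, was at 3872 with DMSO in hypoxia, 4386 on the array titled 10 nM, 4563 on the array titled 1 nM and 4972 at 100 nmol/L, and at 4980 and 5105 in normoxia with DMSO and with 100 nmol/L. The hypoxic DMSO array was the lowest of the 6 for HIF1A, and its log2 difference was 0.18. HIF1AN, the asparaginyl hydroxylase that blocks HIF transactivation, measured 346 with DMSO in hypoxia, 457 on the array titled 10 nM, 310 on the array titled 1 nM, 420 at 100 nmol/L, and 443 and 406 in normoxia (log2 difference 0.40). The log2 differences of EPAS1 (HIF-2α), ARNT and VHL were 0.01, 0.03 and 0.08. Of the genes that the study used as controls, ACTB differed by 0.01, B2M by 0.21, FOXO3 by -0.01 and GATA4 by -0.21. FOXO3 and GATA4 were among the dimmer genes, at 103 and 148 with DMSO in hypoxia and 102 and 127 on the array titled 10 nM. EGLN2, a prolyl hydroxylase that the study also used as a control, is not analysed here, since like CA9 it had no probe set with its symbol alone.

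Few genes differed by 2-fold between the compared arrays, and most of those that did were dim. Among the 15 pairs that 6 arrays form, this pair had 49 genes past 2-fold, the second lowest number after 39 for the pair of arrays with 100 nmol/L. Among the brighter genes it had 7 past 2-fold, the lowest number of the 15 pairs. Of those 7 genes, 3 (0.0265%) were lower and 4 (0.0354%) higher on the array titled 10 nM. Of the 7110 dimmer genes, 35 (0.492%) were lower and 7 (0.0985%) higher. Genes within 1.36-fold made up 95% of the brighter genes, and 95% of the dimmer genes lay within 1.60-fold.

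The balance of lower and higher calls moved with the scaling. It was 38 lower and 11 higher as deposited, 21 and 21 after quantile normalization, 20 and 20 after median centring, and 15 and 24 after removal of the brightness trend. That trend ran through the whole comparison. The median log2 difference was -0.17 over the dimmer genes, 27.1% of which were above 0, and 0.06 over the brighter genes, 65.7% of which were above 0. Over 10 bins of mean intensity with equal numbers of genes it went from -0.17 in the dimmest to 0.09 in bin 8 and 0.06 in the brightest, while the standard deviation across genes went from 0.34 to 0.10. Of the 38 lower genes 21 were in the dimmest bin.

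A like trend separated other arrays too. Relative to hypoxic DMSO, the dimmer genes had a median of -0.18 at 100 nmol/L and -0.01 on the array titled 1 nM. The median intensity over all probe sets was 138 with DMSO in hypoxia and 140 on the array titled 1 nM, but 129 on the array titled 10 nM and 128 to 130 on the other 3. The part of this in the dim genes' differences was not tested.

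**Figure D1:**
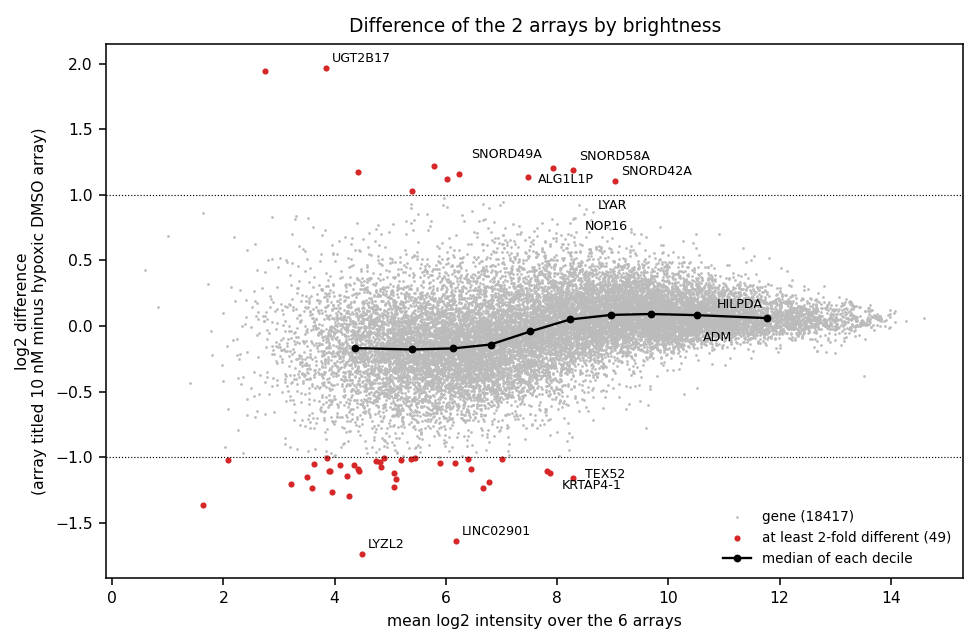
Log2 difference (array titled 10 nM minus hypoxic DMSO array) against mean log2 intensity over the 6 arrays, 1 point per gene, with dotted lines at 2-fold and a black line through the median of each of 10 bins of brightness. Red points are the 49 genes past 2-fold, most of them on the left, and the black line runs from -0.17 in the dimmest bin to 0.06 in the brightest.

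The genes lower on the array titled 10 nM included members of families best known from other tissues. Lower by 2-fold or more were 7 of 361 olfactory receptors and 4 of 68 keratin associated proteins of hair, beside 0.206% of all genes and 0.492% of the dimmer genes. Of the olfactory receptors 356 were dimmer genes, and in the dimmest bin 21 of 1842 genes were lower. Of other lists, 1 of 480 ZNF zinc finger genes and 1 of 189 microRNA genes were lower, near the shares of all genes and of the dimmer genes. TEX52 (probe set 7960338), a gene known from testis, measured 585 with DMSO in hypoxia, 262 on the array titled 10 nM, 394 on the array titled 1 nM and 259 at 100 nmol/L, and 232 and 256 in normoxia with DMSO and with 100 nmol/L. KRTAP4-1 (probe set 8015247) was at 403 with DMSO in hypoxia, 185 on the array titled 10 nM, 342 on the array titled 1 nM and 191 at 100 nmol/L, and at 180 and 191 in normoxia. LY86-AS1, an antisense RNA gene, was at 379, 176, 290 and 220 on the hypoxic arrays in that order and at 185 and 172 in normoxia. Their log2 differences were -1.16, -1.12 and -1.11, and these are the 3 brighter genes that passed. In each the hypoxic DMSO array was the highest of the 6, the array titled 1 nM came next, while the other 4 arrays lay close together.

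Dimmer genes showed the same order in part. CSH2, a placental lactogen gene, measured 185 with DMSO in hypoxia, 86.6 on the array titled 10 nM, 92.2 on the array titled 1 nM and 71.9 at 100 nmol/L, with 67.9 and 64.8 in normoxia (log2 difference -1.09). KRTAP10-3 was at 167 with DMSO in hypoxia, 71.1 on the array titled 10 nM, 145 on the array titled 1 nM, 70.5 at 100 nmol/L, and 94.0 and 99.8 in normoxia, and its log2 difference was -1.23. KRTAP9-3 went from 188 to 82.2 between the compared arrays (-1.19). SLC35G3, a solute carrier of testis, was at 174 and 86.3 on the compared arrays but at 205 on the array titled 1 nM, so its log2 difference was -1.01 on one low-dose array and 0.23 on the other. Members of the keratin associated families are near copies of each other, so probe sets of these genes may share signal.

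The lowest ratios of all were among the dimmer genes. LYZL2, a lysozyme-like gene, was at 29.3 with DMSO in hypoxia and 8.81 on the array titled 10 nM, with 22.3 to 33.6 on the other 4 arrays, a log2 difference of -1.73. LINC02901, a long noncoding RNA gene, was at 114 and 36.5 on the compared arrays, 98.6 on the array titled 1 nM, 52.2 at 100 nmol/L and 85.0 and 79.2 in normoxia, a log2 difference of -1.64. In both genes the array titled 10 nM was the lowest of the 6. ZNF578 and OR10K2 followed with -1.36 and -1.30, and at 6.01 and 39.8 with DMSO in hypoxia they were far below the array's median of 138. With 32 added to every value the difference of ZNF578 was -0.15.

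Over the 38 lower genes, the hypoxic DMSO array was the highest of the 6 in 31 (81.6%, against 23.3% of all genes), and the array titled 10 nM was the lowest in 22 (57.9%, against 11.2%). A 2-fold threshold on these arrays picks genes with extreme values on them, so these shares are a description only. With the mean of the array titled 1 nM and the hypoxic DMSO array as control, chosen after seeing the data, 16 genes were at least 2-fold lower and 8 higher. The rest of the 12 largest decreases, PRB3, LOC102723701, OR51S1, KRTAP10-2 and KLHL30, lay just inside 2-fold, from -0.99 to -0.94. Among those 12 decreases the array titled 10 nM was the lowest of the 6 in 5, which were SLC35G3, PRB3, LOC102723701, OR51S1 and KLHL30.

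Of the 11 genes higher on the array titled 10 nM (0.0597% of all), 4 were small nucleolar RNAs of the C/D box class, of which 115 were measured. Many RNAs of this class guide the methylation of ribosomal RNA and are cut from introns of host genes. SNORD49A (probe set 8005202) measured 118 with DMSO in hypoxia, 273 on the array titled 10 nM, 189 on the array titled 1 nM and 297 at 100 nmol/L, with 328 and 349 in normoxia with DMSO and with 100 nmol/L. SNORD58A (probe set 8023259) was at 154 with DMSO in hypoxia, 352 on the array titled 10 nM, 336 on the array titled 1 nM, 467 at 100 nmol/L, and 397 and 275 in normoxia. SNORD42A (probe set 8005955) measured 303 with DMSO in hypoxia, 654 on the array titled 10 nM, 531 on the array titled 1 nM, 794 at 100 nmol/L, and 342 and 759 in normoxia. The log2 differences were 1.21, 1.19 and 1.11, and in all 3 the hypoxic DMSO array was the lowest of the 6. SNORD102, the fourth, was dim, at 37.7 with DMSO in hypoxia and 82.2 on the array titled 10 nM (1.12). SNORD75 and SNORD54 lay just under 2-fold, both at 0.95, and SNORD75 was higher still on the array titled 1 nM (910) and at 100 nmol/L (1128) than on the array titled 10 nM (592).

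The C/D box list as a whole was spread to both sides. It had a median log2 difference of 0.10 over 115 genes, with 77 above 0, and 0.15 with the brightness trend removed. Its upper quartile was 0.42, against 0.14 over all genes, and its lowest member was SNORD114-26 at -0.77. By contrast the H/ACA box and Cajal body RNAs, which guide pseudouridylation, had a median of -0.04 over 77 genes, which was 0.06 after median centring.

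Genes that contain these small RNAs differed little. RefSeq intervals placed 27 small nucleolar RNA genes of the list inside 19 measured genes, which had a median log2 difference of 0.10 and spanned -0.14 to 0.27. SNORD49A lies in SNHG29, which differed by 0.13. SNORD58A lies in RPL17 and SNORD42A in RPL23A, ribosomal protein genes that differed by 0.10 and 0.07. Ribosomal protein genes have processed copies elsewhere in the genome, so the probe set of such a gene may hold signal of a copy.

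The rest of the 12 largest increases outside the small RNAs and LYAR had their lowest value with DMSO in hypoxia. ALG1L1P, a pseudogene, measured 82.1 with DMSO in hypoxia, 180 on the array titled 10 nM, 183 on the array titled 1 nM, 175 at 100 nmol/L, and 308 and 217 in normoxia (log2 difference 1.13). EXOSC3, a core subunit of the RNA exosome, was at 191 with DMSO in hypoxia, 361 on the array titled 10 nM, 283 on the array titled 1 nM, 382 at 100 nmol/L, and 472 and 413 in normoxia, with a log2 difference of 0.92. FAM177A1 went from 243 to 443 (0.87), ZNF724 from 238 to 430 (0.86), CCDC112 from 71.7 to 134 (0.90) and the pseudogene ANKRD36BP1 from 69.7 to 132 (0.92). For each of these 6 genes the array titled 10 nM lay above hypoxic DMSO and below normoxia with DMSO. The largest ratios were again dim: UGT2B17, a steroid glucuronosyltransferase, went from 8.21 to 32.1 (1.97), LINC00917 from 4.41 to 16.9 (1.94), SUMO1P3 from 27.4 to 63.9 (1.22) and haptoglobin (HP) from 14.4 to 32.6 (1.18). In UGT2B17, LINC00917 and HP the array titled 10 nM was the highest of the 6 and the hypoxic DMSO array was not the lowest. On the scale with 32 added these 4 differences were 0.67, 0.43, 0.69 and 0.48.

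**Figure D2:**
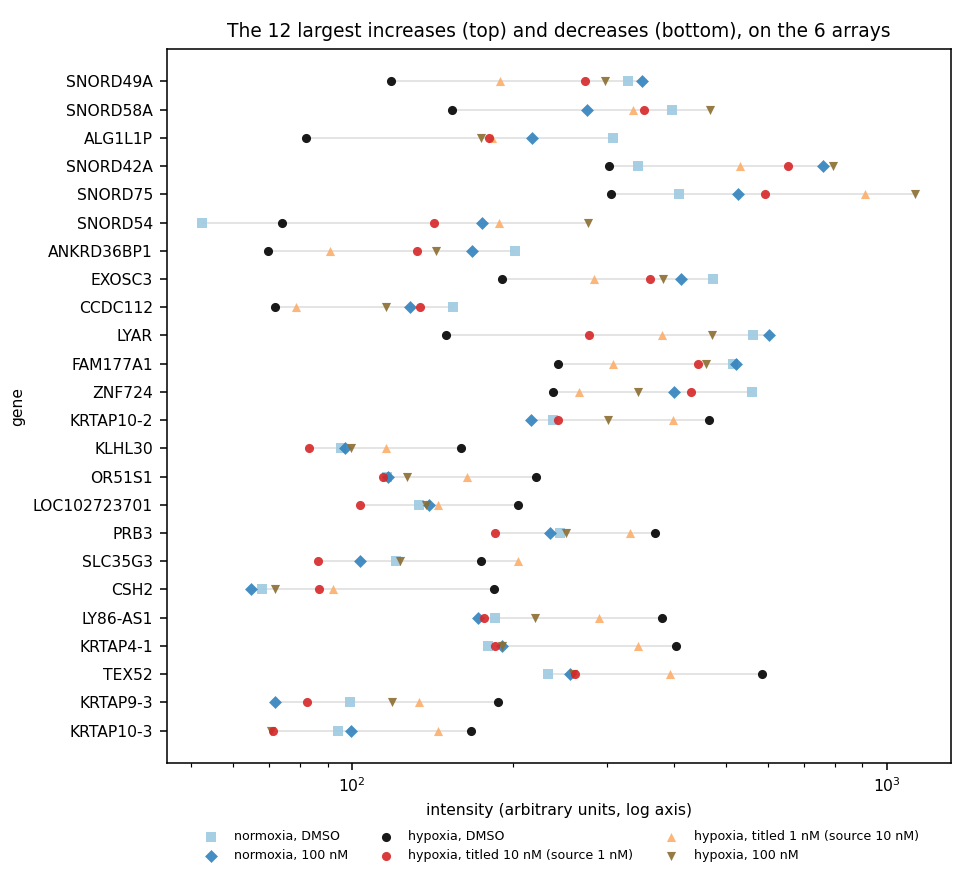
Intensity (log axis, arbitrary units) on the 6 arrays of the 12 genes with the largest increase (top) and the 12 with the largest decrease (bottom), among genes that reached the array's median on the brighter of the compared arrays; each point is 1 array. The black points (hypoxia with DMSO) stand at the left end for nearly all increases and at the right end for nearly all decreases, as for SNORD49A at 118 and TEX52 at 585, and the red point (array titled 10 nM) is the lowest of the 6 in 5 of the 12 decreases. The genes were picked on the black and red arrays, so these positions are a description only.

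Ribosome biogenesis genes had the highest median of the lists as deposited, and they were all on the same side. With the brightness trend removed, C/D box RNAs and ZNF zinc finger genes were level with them at 0.15. All 41 measured of 45 listed genes were brighter on the array titled 10 nM than on the hypoxic DMSO array, with a median log2 difference of 0.23, and none reached 2-fold. Of the brighter genes in general 65.7% were above 0. After quantile normalization 38 of 41 were above 0 with a median of 0.16, and with the brightness trend removed 38 of 41 with a median of 0.15. The 9 measured reference genes were all above 0 as deposited too, with a median of 0.09, but 5 of 9 after quantile normalization, with a median of 0.00. Ribosome biogenesis spanned 0.04 for the helicase DDX56 to 0.89 for LYAR.

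Its largest members had their lowest value with DMSO in hypoxia. LYAR (probe set 8099107), a nucleolar protein of early ribosomal RNA processing, measured 150 with DMSO in hypoxia, 278 on the array titled 10 nM, 379 on the array titled 1 nM and 472 at 100 nmol/L, and 563 and 603 in normoxia with DMSO and with 100 nmol/L. NOP16 (probe set 8115907), a nucleolar protein of the large subunit, was at 123, 218, 343 and 398 on the hypoxic arrays in that order and at 558 and 522 in normoxia. UTP15, a part of the small subunit processome, was at 281, 457, 572 and 808, and at 1297 and 1130 in normoxia. LYAR, NOP16 and UTP15 stood in one order. They were lowest with DMSO in hypoxia, then came the array titled 10 nM, the array titled 1 nM, 100 nmol/L and normoxia. They were picked for their difference between the compared arrays, which favours a low hypoxic DMSO value, so their order is a description only. Other genes broke it, and PES1, UTP14A, TSR1, NHP2 and NOB1 were brighter on the array titled 10 nM than on the array titled 1 nM. Over the list, hypoxic DMSO was the lowest of all arrays in 38 of 41 genes. MAK16 and RRP15, factors of large subunit assembly, differed by 0.68 and 0.56 on the array titled 10 nM. The list's median against the same hypoxic DMSO array was 0.60 on the array titled 1 nM, with 5 genes at least 2-fold higher beside 41 of all genes (0.223%), and 0.75 at 100 nmol/L, with 11 beside 141 of all genes (0.766%).

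**Figure D3:**
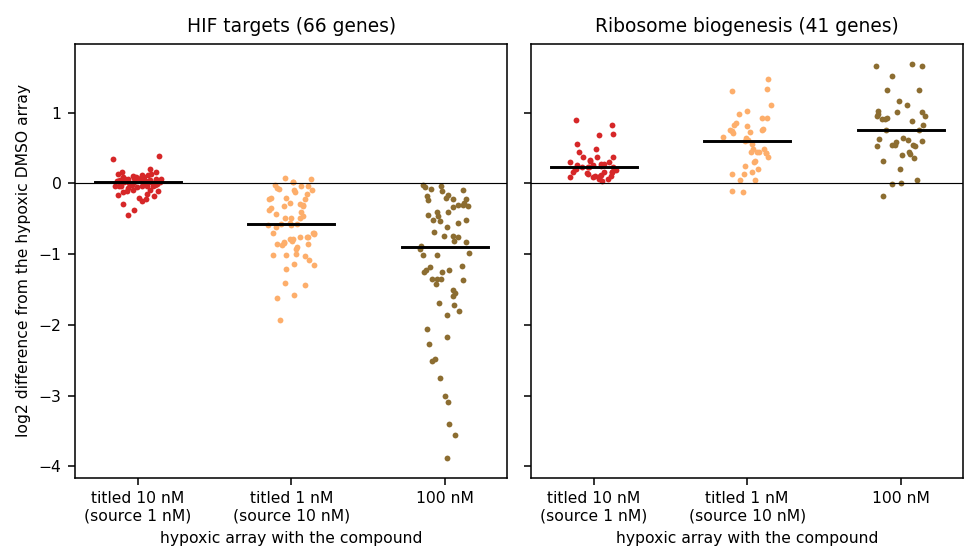
Log2 difference from the hypoxic DMSO array for the HIF targets (left, 66 genes) and the ribosome biogenesis genes (right, 41 genes) on the array titled 10 nM, the array titled 1 nM and the array with 100 nmol/L; points are genes, bars are medians, and sideways spread only separates points. The HIF medians are 0.03, -0.58 and -0.90, and the ribosome biogenesis medians are 0.23, 0.60 and 0.75; the 3 columns share 1 control array.

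Lists of growth and protein synthesis also had medians above 0, at a smaller size. Genes of the G1/S transition and DNA replication had a median of 0.14 with 31 of 34 above 0, and 0.06 with the brightness trend removed. POLE2, a subunit of DNA polymerase ε, measured 306 with DMSO in hypoxia, 502 on the array titled 10 nM, 562 on the array titled 1 nM, 698 at 100 nmol/L, and 1305 and 881 in normoxia, a log2 difference of 0.72. CCNE2, a cyclin of S phase entry, differed by 0.49. Mitotic genes had a median of 0.13 with 30 of 34 above 0, and 0.05 with the trend removed. Here the kinesin CENPE (0.46) and the spindle checkpoint kinase TTK (0.43) were the largest, and neither was brighter on the array titled 1 nM than with DMSO (-0.07 and -0.17).

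Cytosolic tRNA synthetases had a median of 0.13 with 18 of 19 above 0, led by CARS1 (0.30) and YARS1 (0.29). Mitochondrial ribosomal proteins had a median of 0.13 with 65 of 73 above 0. MRPS23 was the largest, at 267 with DMSO in hypoxia, 424 on the array titled 10 nM, 482 on the array titled 1 nM, 581 at 100 nmol/L, and 793 and 660 in normoxia (0.67). Splicing factors of the SR family and their CLK kinases had a median of 0.14 over 16 genes, and cytosolic ribosomal proteins of 0.07 over 66 genes. None of these genes was past 2-fold, and each median was nearer to 0 with the brightness trend removed.

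Complex I, which the compound is reported to block, had a median of 0.09 over 34 subunits, with 26 above 0, and 0.01 with the brightness trend removed. NDUFB6, an accessory subunit, stood apart at 332 with DMSO in hypoxia, 555 on the array titled 10 nM, 421 on the array titled 1 nM, 596 at 100 nmol/L, and 524 and 627 in normoxia, a log2 difference of 0.74. The other subunits ranged up to 0.30 for NDUFB1 and down to -0.11 for NDUFA3. Complexes II to V had a median of 0.02 over 32 subunits, which was -0.01 with the trend removed, with UQCRH of complex III the highest at 0.44.

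Stress and signalling lists lay near 0 and none of their genes passed 2-fold. The median was 0.02 for targets of ATF4, the factor of the amino acid response, over 28 genes, and -0.04 after quantile normalization. It was 0.06 for the unfolded protein response, where DNAJB9, a chaperone of the endoplasmic reticulum, was at 420 with DMSO in hypoxia and 598 on the array titled 10 nM (0.51). Targets of NRF2, the antioxidant factor, had a median of 0.06 over 20 genes, with GCLM, a subunit of the enzyme that starts glutathione synthesis, at 771 and 1053 on the compared arrays (0.45). GCLM was at 1204 on the array titled 1 nM and 1546 at 100 nmol/L. For p53 targets the median was 0.04 over 20 genes, and TIGAR, a fructose bisphosphatase, was the largest with 138 and 198 on the compared arrays (0.53). Immediate early genes (0.03), feedback genes of the ERK pathway (0.01), sterol synthesis (0.06) and iron handling (0.05) had medians that turned negative after quantile normalization, and interferon-stimulated genes (0.03) and histones (0.03) kept the sign. TXNIP and its relatives under MondoA had a median of -0.12 over 3 genes.

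**Figure D4:**
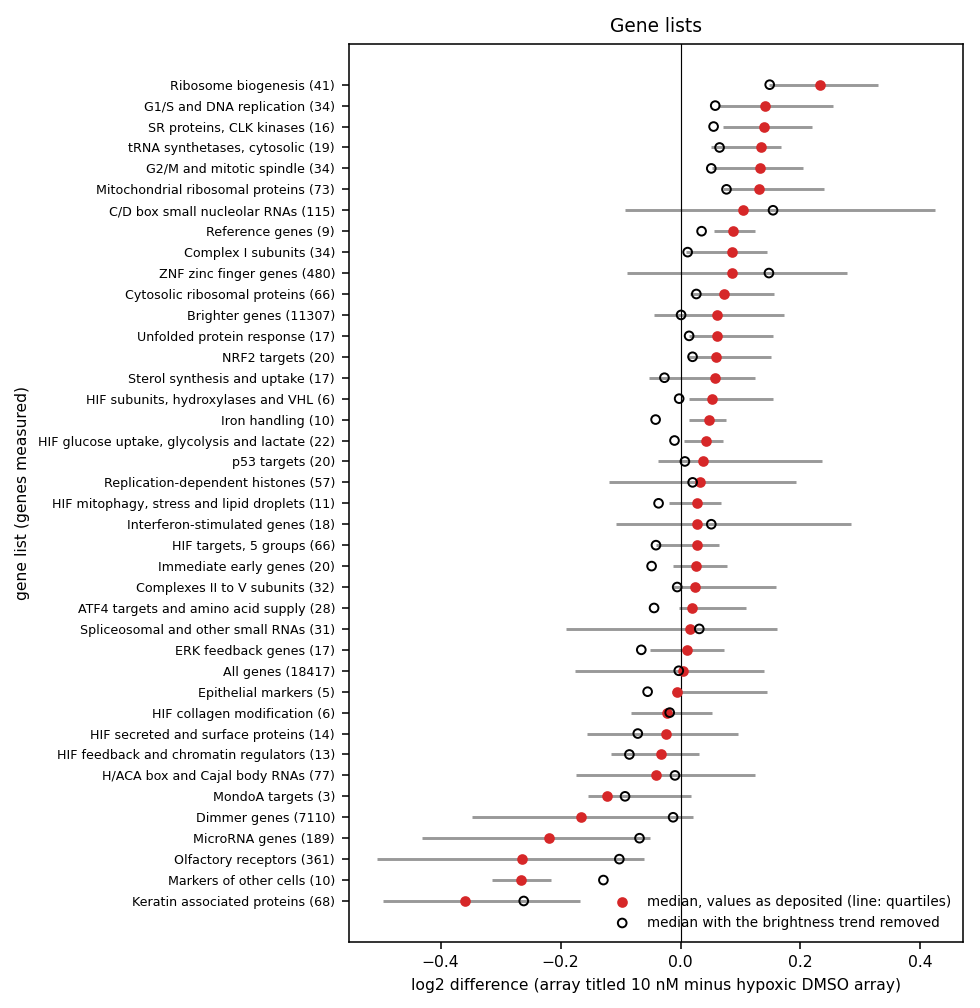
Median log2 difference (array titled 10 nM minus hypoxic DMSO array) of each gene list as deposited (red, with a line from the lower to the upper quartile) and with the brightness trend removed (open circles); the number of genes measured stands beside each name. As deposited, ribosome biogenesis is highest at 0.23 and keratin associated proteins lowest at -0.36, and the open circles lie nearer to 0 for both.

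Olfactory receptors, microRNA genes and keratin associated proteins, mostly dim lists, had medians below 0. Olfactory receptors had a median of -0.26 over 361 genes, with 70 above 0, and -0.10 with the brightness trend removed. MicroRNA genes had a median of -0.22 over 189, and -0.07 with the trend removed. Keratin associated proteins had the lowest median, -0.36 over 68 genes with 6 above 0, which was -0.26 with the trend removed. Of these, 27 were brighter genes, all below 0, with a median of -0.38, and -0.44 with the trend removed. The 41 dimmer ones had a median of -0.35, and -0.20 with the trend removed. Against the same hypoxic DMSO array the median of all 68 was 0.00 on the array titled 1 nM and -0.35 at 100 nmol/L. ZNF zinc finger genes, transcriptional regulators of which 255 of 480 were brighter, went the other way with a median of 0.09, and 0.15 with the trend removed.

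Gene sets chosen on arrays outside the comparison gave a further view. On the array titled 1 nM 455 genes were at least 2-fold lower than in normoxia with DMSO (2.47%). These genes had a median log2 difference of 0.19 between the compared arrays, with 372 (81.8%) above 0, and 0.20 with the brightness trend removed. Of all genes 50.8% were above 0, and of the brighter genes, to which 353 of the 455 belong, 65.7%. The 144 genes higher there than in normoxia (0.782%) had a median of -0.03, with 68 above 0. Genes lower at 100 nmol/L in hypoxia than in normoxia with DMSO numbered 197 (1.07%) and had a median of 0.13, with 138 (70.1%) above 0. As deposited, the 114 genes higher there (0.619%) lay on the same side, with a median of 0.08 and 82 (71.9%) above 0. With the brightness trend removed, the 114 had a median of 0.02 with 62 above 0. The 197 then had a median of 0.13 with 135 above 0, and the 144 had -0.06 with 48 above 0. Past 2-fold between the compared arrays were 0 of the 455, 1 of the 197 (lower) and 3 of the 114 (higher). Of the 144, 1 was lower and 2 were higher. These counts stand beside 49 of 18417 genes in all.

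The markers of the cell line were checked on all arrays. The epithelial keratins KRT8, KRT18 and KRT19 were bright, with KRT8 at 10272 with DMSO in hypoxia and 11357 on the array titled 10 nM. EPCAM and CDH1, epithelial surface proteins, were below each array's median on every array, at most 76.7 and 45.8. Of 12 listed markers of leukocytes, endothelium, fibroblasts and erythroid cells, 10 were measured, and only the collagen genes COL1A1 (282 to 381) and COL1A2 (126 to 167) were among the brighter genes. The others did not exceed 108, and their list had a median of -0.27, or -0.13 with the brightness trend removed. Fewer cells of a type and less RNA per cell cannot be told apart on such arrays.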

How the data were processed

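RNA of H460 cells was hybridised by the authors to Affymetrix Human Gene 1.0 ST arrays, 1 per condition. The deposited table holds 1 intensity value on a linear scale per probe set and array. The methods describe background correction with the MAS software and evaluation in Expressionist, whereas RMA is the tool in the processing notes of the submitters, with no version. The array medians lay between 128 and 140. The genome build behind the probe sets was not given in the sources used here, and names came from the platform annotation of the array.

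Values were taken to log2 with no pseudocount and no filter. Of 33297 probe sets, 19460 carried 1 symbol in the platform annotation, 1754 several and 12083 were not listed. For 19429 the symbol was matched to a current RefSeq gene. The brightest probe set by mean over 6 arrays stood for each of 18417 genes, of which 769 had more than 1. Brighter genes had a mean at or above the median probe set. A difference is that of 2 arrays, and precision is limited by the number of arrays. The threshold was 2-fold and no test was run, so all shares and medians describe these arrays only.

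Samples were grouped by their labels, and the compared array by its title. Genes were named by rule: the 12 largest decreases and increases among genes reaching the array's median on the brighter of the compared arrays, the 4 largest each way among dimmer genes, genes the study names, the 2 largest each way of each of 37 gene lists, and the 4 HIF targets per group with the largest hypoxic increase. Exceptions are stated. The members and lists were chosen with earlier results of these data known. Promoters and gene intervals came from RefSeq (GRCh38.p14).

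Alternatives were quantile normalization, median centring, removal of a loess trend on brightness (span 30% of genes), 32 added before log2, the mean over all probe sets of a gene, brighter genes only, thresholds of 1.5-fold and 3-fold, the array titled 1 nM instead of the one titled 10 nM and, chosen after seeing the data, the mean of 2 hypoxic arrays as control. The steps were tested on simulated data. Tools were matplotlib 3.10.9, scipy 1.17.1, pandas 2.3.3, numpy 2.4.6 and Python 3.11.15.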

Additional observations from a re-analysis of the deposited data

How the results depend on the processing

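With 1 array per condition, spread between cultures is unknown, and values near the dim end carry the largest scatter. No paired analysis was possible because each condition has 1 array and no replicate to leave out.

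The number of genes at least 2-fold lower on the array titled 10 nM than with DMSO in hypoxia was 38, and the number higher was 11. Lower and higher numbered 21 and 21 after quantile normalization, 20 and 20 after median centring, and 15 and 24 with the brightness trend removed. They numbered 3 and 3 with 32 added before log2, 3 and 4 among brighter genes only, 590 and 195 at 1.5-fold, and 2 and 2 at 3-fold. With the mean of 2 hypoxic arrays as control they numbered 16 and 8, and with probe sets of a gene averaged 39 and 12. Of the 38 lower genes, 20 kept a 2-fold difference after quantile normalization, 14 with the trend removed and 3 with 32 added, and of the 11 higher genes 11, 11 and 3 did. All 38 stayed below 0 and all 11 above 0 under these 3 settings, median centring and the mean of probe sets.

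With the array titled 1 nM instead, 66 genes were lower and 41 higher, 12 HIF targets were 2-fold lower, and the HIF median was -0.58. In this setting 6 of the 38 lower genes and 5 of the 11 higher genes were past 2-fold. Of the 38, 33 stayed below 0, and LCE2D (0.35) and SLC35G3 (0.23) were among those that turned above 0. All 11 stayed above 0. Under the processing alternatives the number of HIF targets 2-fold lower stayed 0, and their median lay between -0.041 and 0.125. The medians of 7 of 37 gene lists changed sign after quantile normalization, 5 after median centring and 9 with the trend removed. Beyond the construction of each setting, the cause was not tested.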

Other observations

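Of 12083 probe sets not listed in the platform annotation, 372 (3.08%) were lower by 2-fold or more and 443 (3.67%) were higher on the array titled 10 nM than with DMSO in hypoxia, beside 0.206% and 0.0597% of the named genes. They were dim, with a median mean intensity of 50.2 against 236 for the named genes, and 27 of those lower and 39 of those higher were at or above the median probe set. Among the 7110 dimmer named genes the shares were 0.492% lower and 0.0985% higher. The cause of the larger shares of the unlisted probe sets was not tested. Of 1754 probe sets with several symbols, 4 were lower and 1 was higher.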
